A study of Mus musculus with 9 samples.

Results

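Inflammasomes are protein assemblies that form in the cytoplasm when a sensor meets a microbial product or a sign of cell damage. The sensor recruits the adaptor ASC and caspase 1, which cleaves the precursors of interleukin 1 beta and interleukin 18 and opens gasdermin D, the pore through which these cytokines leave the cell. In the kidney, macrophages and dendritic cells are the usual source of interleukin 1 beta, whereas interleukin 18 is also made by tubule epithelium. The 10 genes described here were chosen by symbol: the sensors Nlrp3, Nlrc4 and Aim2, the adaptor Pycard, the caspases Casp1 and Casp4, the pore protein Gsdmd and the cytokines Il1a, Il1b and Il18. All 10 were present among the 52160 gene symbols counted, and 9 passed the filter on low counts that left 18067 tested genes. Il1a did not pass it.

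Counts came from polyadenylated RNA of whole kidney of mice 16 weeks old on the C57Bl/6N background, with 3 libraries in each of 3 groups. K2A mice carried a Ybx1 in podocytes that lacks the lysines needed for its release by the acetylation route (K299A and K302A, both in exon 7). ΔPod mice lacked Ybx1 in podocytes. Wild-type (WT) mice came from a commercial breeder, and the labels name neither the breeder of the mutants, the promoter that drove recombination, nor the sex of any animal. Whether the libraries are of separate animals is not stated in the labels, so p-values measure the spread between samples, which may be technical.

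Libraries held 30776806 to 46852490 counts, and 3 counts over a group corresponded to 0.0280 CPM (counts after scaling of the libraries) in K2A, 0.0250 CPM in ΔPod and 0.0269 CPM in WT. These limits cover counting error only. Ybx1, which most kidney cells transcribe, was counted at 554 to 1152 CPM in K2A, 605 to 1167 CPM in ΔPod and 1185 to 1585 CPM in WT. Proximal tubule markers were abundant in every library, with 7 genes summing to 2154 to 7375 CPM in K2A, 1523 to 10452 CPM in ΔPod and 6556 to 14176 CPM in WT. Mitochondrially encoded genes held 7.07% to 8.83% of counts in K2A, 1.60% to 11.6% in ΔPod and at most 3.97% in WT. Xist, the noncoding RNA of the inactive X chromosome, had 30.6 to 331 CPM in K2A, 17.0 to 124 CPM in ΔPod and no count in WT, whereas 4 Y-linked genes summed to at most 0.682 CPM in K2A, to 0 in ΔPod and to 94.4 to 119 CPM in WT. Genotype and sex therefore cannot be told apart in either comparison with WT. Within every group the libraries also differed in how counts ran with transcript length. The slope of log2 counts on log2 transcript length, centred on the mean of all libraries, was positive in K2A 3, ΔPod 3, WT 1 and WT 3, called long-transcript libraries here. It was negative in the short-transcript libraries K2A 1, K2A 2, ΔPod 1, ΔPod 2 and WT 2, and it ran from -0.48 to 0.37. In whole kidney, fewer cells of a type and less RNA per cell cannot be told apart.

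The promoter windows of 4 members on which the comparisons below turn are shown for orientation. They come from RefSeq on GRCm38.p6, each with 250 bases before and 50 after a transcription start, read 5′ to 3′ on the strand of the gene. Nlrc4 lies at chr17:74459059-74459358 on the minus strand, Aim2 at chr1:173420354-173420653 on the plus strand, Casp4 at chr9:5308599-5308898 on the plus strand and Il1b at chr2:129371090-129371389 on the minus strand. Capitals mark matches to the motifs named after the sequences.
Nlrc4: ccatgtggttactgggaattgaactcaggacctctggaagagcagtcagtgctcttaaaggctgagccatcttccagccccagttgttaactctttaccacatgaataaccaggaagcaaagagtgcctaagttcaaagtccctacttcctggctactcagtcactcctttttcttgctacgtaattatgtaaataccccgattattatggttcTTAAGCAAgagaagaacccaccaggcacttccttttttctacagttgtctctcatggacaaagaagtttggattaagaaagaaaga
Aim2: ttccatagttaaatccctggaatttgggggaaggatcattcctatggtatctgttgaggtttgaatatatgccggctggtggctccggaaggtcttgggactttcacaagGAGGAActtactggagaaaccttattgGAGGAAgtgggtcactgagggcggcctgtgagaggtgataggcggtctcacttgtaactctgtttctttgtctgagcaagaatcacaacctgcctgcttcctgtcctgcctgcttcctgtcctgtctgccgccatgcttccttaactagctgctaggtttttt
Casp4: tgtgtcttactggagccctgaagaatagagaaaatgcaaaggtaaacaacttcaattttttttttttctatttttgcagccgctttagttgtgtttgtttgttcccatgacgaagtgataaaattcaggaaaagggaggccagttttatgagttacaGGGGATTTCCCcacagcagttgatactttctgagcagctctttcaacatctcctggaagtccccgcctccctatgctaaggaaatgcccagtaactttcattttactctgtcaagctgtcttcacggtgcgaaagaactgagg
Il1b: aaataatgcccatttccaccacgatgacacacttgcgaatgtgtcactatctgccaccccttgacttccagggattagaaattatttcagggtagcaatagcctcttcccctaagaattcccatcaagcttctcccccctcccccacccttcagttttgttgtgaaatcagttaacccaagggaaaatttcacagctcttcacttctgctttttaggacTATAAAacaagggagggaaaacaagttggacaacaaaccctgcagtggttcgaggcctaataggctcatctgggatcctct

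The windows were searched on both strands for the kappaB consensus of NF-kB, AP-1 (TGANTCA), the core of the myeloid factor PU.1 (GAGGAA), the core of the interferon response element, C/EBP (TTGCNNAA) and the TATA box (TATAAA). Of the 10 members, 9 had 11 windows in the table. The Casp4 window held a pair of kappaB matches that overlap each other by all but a base, 93 to 83 bases before the start, and 1 of the windows of Nlrp3 held another. Such a match was present in 4.51% of 32851 promoter windows. Aim2 had a pair of PU.1 cores. At least 1 such core was present in 28.3% of windows and in 5 of the 9 members. Nlrc4 had a C/EBP match 36 to 29 bases before its start, present in 10.8% of windows, and Il1b a TATA box 31 to 26 bases before its start, present in 13.6%. The AP-1 letters occurred in 1 member, Il1a, and in 7.81% of windows, and the interferon element occurred in 0 of the 9 members and 3.44% of windows. None of the motifs overlapped a different motif in the windows printed. These are matches of letters and not shown to be bound.

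Nlrc4 was the sensor with the clearest difference from WT, and it was lower in both mutant groups. Nlrc4 encodes the scaffold of the inflammasome that responds to bacterial flagellin and secretion-system proteins through NAIP receptors. The gene spans chromosome 17, 74425438 to 74459142 (mm10), on the minus strand. Nlrc4 had 3.16, 1.96 and 3.34 CPM in K2A, 2.86, 2.84 and 1.87 CPM in ΔPod and 4.74, 6.56 and 7.04 CPM in WT. Each of the 6 mutant libraries was under the minimum of WT, whichever way their counts ran with transcript length. Of all genes, 9.18% lay below WT without overlap in K2A and 9.47% in ΔPod, and the share in both was not counted. The log2 fold change was -1.12 in K2A (SE 0.34, unadjusted p = 0.00956, adjusted p = 0.235) and -1.28 in ΔPod (SE 0.34, unadjusted p = 0.00470, adjusted p = 0.164) by the edgeR quasi-likelihood test, so neither passed at 0.05. With DESeq2 both passed, at -1.17 in K2A (adjusted p = 0.0303) and -1.27 in ΔPod (adjusted p = 0.0144).

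Nlrp3, the sensor of potassium efflux and membrane damage, was near the lower end of what these libraries could measure. It had 14, 8 and 16 counts in K2A, 3, 7 and 29 counts in ΔPod and 16, 14 and 23 counts in WT. In CPM these were 0.434, 0.237 and 0.387 in K2A, 0.109, 0.164 and 0.584 in ΔPod and 0.444, 0.401 and 0.568 in WT. The groups overlapped, and within ΔPod the value of ΔPod 3 exceeded the others several times over. For Nlrp3 the log2 fold change was -0.41 in K2A (95% interval -1.81 to 0.98) and -0.67 in ΔPod (-2.07 to 0.72). Without ΔPod 3 the ΔPod value was -1.77.

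Aim2, the sensor of DNA in the cytoplasm, had a higher mean CPM in both mutant groups, and the ΔPod libraries did not overlap WT. Aim2 had 1.02, 1.16 and 0.339 CPM in K2A, 2.60, 1.52 and 0.625 CPM in ΔPod and 0.360, 0.573 and 0.198 CPM in WT. The lowest ΔPod library stood only just above the highest WT library, and in every group the long-transcript libraries were the lowest. For Aim2 the log2 fold change was 1.15 in K2A (SE 0.68, adjusted p = 0.639) and 2.06 in ΔPod (SE 0.69, unadjusted p = 0.0160, adjusted p = 0.275).

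Pycard, which encodes the adaptor ASC that joins sensors to caspase 1, was the most abundant member. Its annotated transcript is 3800 bases long with 579 coding bases, at chromosome 7, 127989708 to 127993867 (mm10). Pycard had 40.8, 37.6 and 6.85 CPM in K2A, 94.2, 33.4 and 10.9 CPM in ΔPod and 9.84, 20.1 and 8.80 CPM in WT. The 3 groups overlapped, since K2A 3 lay below every WT library and ΔPod 3 lay below WT 2. The short-transcript libraries exceeded the long-transcript libraries by 5.73 times in K2A, 5.86 times in ΔPod and 2.16 times in WT. The log2 fold change was 1.14 in K2A (SE 0.85, adjusted p = 0.729) and 1.84 in ΔPod (SE 0.87, adjusted p = 0.382). Without ΔPod 1, whose count is the largest, the ΔPod value was 0.77. An overlapping transcript on the opposite strand, Gm45205, shares 485 exon bases with Pycard but had 0 to 5 counts in a library.

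The libraries that resembled each other in Pycard did so in many other genes. Over the 9 libraries, among 13133 genes whose mean log2 CPM reached 1, log2 CPM of Pycard ran closest to that of Nudt22, Snhg18 and Triqk, each with Pearson r = 0.997. These values are a description of libraries that share the division by transcript length.

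The caspases followed the same division. Casp1, the protease that matures both cytokines, had 1.83, 2.28 and 0.726 CPM in K2A, 2.06, 1.81 and 0.887 CPM in ΔPod and 0.638, 0.945 and 0.939 CPM in WT. K2A 3 and ΔPod 3 lay inside the range of WT, and the other mutant libraries lay above it. The log2 fold change was 0.93 in K2A (SE 0.50, adjusted p = 0.590) and 0.91 in ΔPod (SE 0.50, adjusted p = 0.417). Casp4 encodes mouse caspase 11, which binds lipopolysaccharide in the cytoplasm and cleaves gasdermin D. Casp4 had 2.88, 2.46 and 0.557 CPM in K2A, 8.21, 4.43 and 1.05 CPM in ΔPod and 0.527, 1.92 and 0.371 CPM in WT. Both mutant groups overlapped WT, through K2A 3 and ΔPod 3. The log2 fold change of Casp4 was 1.07 in K2A (SE 0.92, adjusted p = 0.759) and 2.28 in ΔPod (SE 0.94, unadjusted p = 0.0399, adjusted p = 0.350). Without WT 2, the highest WT library, these values were 2.10 and 3.31, and without ΔPod 1 the ΔPod value was 1.54.

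Gsdmd, the pore-forming substrate of both caspases, separated K2A from WT. The gene lies on chromosome 15, 75862327 to 75867408 (mm10), on the plus strand. Gsdmd had 6.94, 6.73 and 3.001 CPM in K2A, 5.10, 4.20 and 2.66 CPM in ΔPod and 1.77, 2.81 and 1.58 CPM in WT. The K2A libraries all lay above WT, whereas ΔPod 3 lay just below WT 2. Gsdmd had a log2 fold change of 1.43 in K2A (SE 0.44, unadjusted p = 0.0102, adjusted p = 0.238) and 0.95 in ΔPod (SE 0.43, adjusted p = 0.373).

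Il1b, the precursor of interleukin 1 beta, was the cytokine with the largest difference, and the difference was in ΔPod. Il1b had 1.80, 2.22 and 0.436 CPM in K2A, 3.07, 3.24 and 2.72 CPM in ΔPod and 0.388, 1.20 and 0.618 CPM in WT. The ΔPod libraries were close to each other and above every other library, and K2A 3 lay within WT. The log2 fold change was 1.01 in K2A (SE 0.62, adjusted p = 0.657) and 2.03 in ΔPod (SE 0.62, unadjusted p = 0.0107, adjusted p = 0.243), and DESeq2 called the ΔPod difference at 2.05 (adjusted p = 0.0278). The ΔPod value rests on 85, 138 and 135 counts, set against 14, 42 and 25 in WT. The antisense transcript Il1bos shares 25 exon bases with Il1b and had at most 7 counts in a library.

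Il18 had a slightly lower mean in both mutant groups, and Il1a was barely counted. Il18, which needs the same processing but is made without a prior stimulus in many epithelia, had 1.33, 1.90 and 0.750 CPM in K2A, 2.42, 1.85 and 0.766 CPM in ΔPod and 1.91, 2.52 and 1.26 CPM in WT. The 3 groups overlapped, and the log2 fold change was -0.52 in K2A (95% interval -1.71 to 0.68) and -0.18 in ΔPod (-1.37 to 1.005). Il1a, an alarmin that acts without cleavage by caspase 1, had 1 count in K2A 2 and 0 counts in the other 8 libraries. Its level was thus not detectable in these counts, and no fold is given. An overlapping transcript on the opposite strand, Gm14023, shares 222 exon bases with Il1a and had 42 to 82 counts in a library. Whether this overlap lowered the counts of Il1a was not tested.

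**Figure D1:**
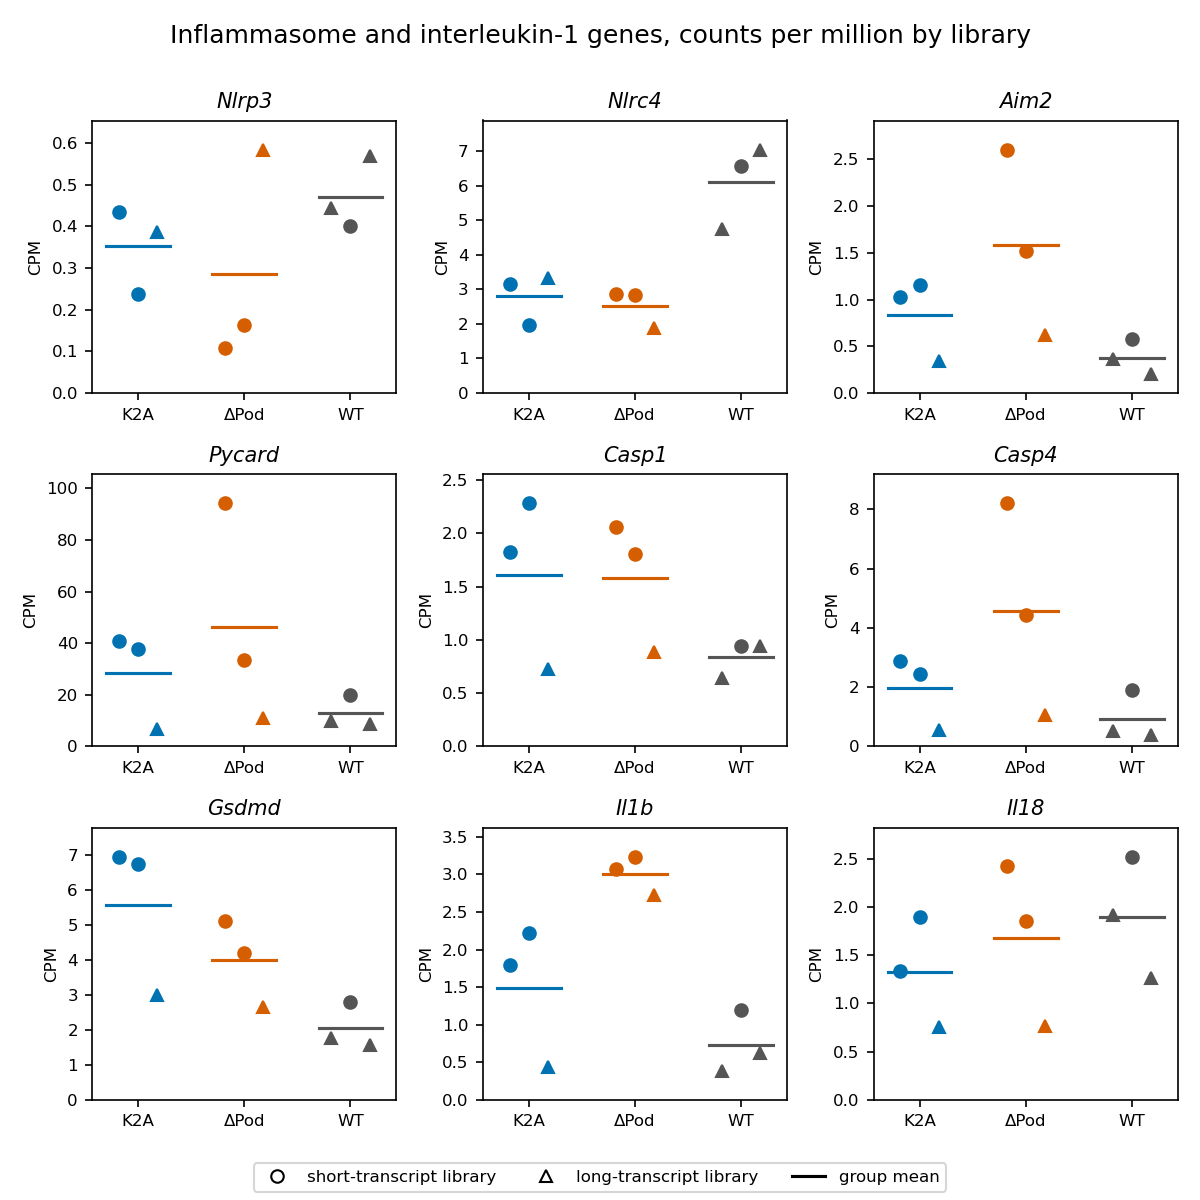
CPM of the 9 tested members in each library of K2A, ΔPod and WT, on linear axes that start at 0. Circles are short-transcript libraries, triangles long-transcript libraries and bars group means (3 libraries each). Nlrc4 is the panel in which all 6 mutant libraries lie below WT, and in Il1b the ΔPod libraries, at 2.72 to 3.24 CPM, lie above all others.

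Counted over the family, 0 of the 9 tested members passed edgeR in K2A, 0 in ΔPod and 0 between K2A and ΔPod. Over all genes the shares were 0.847% in K2A, 0.985% in ΔPod and 0% between them. An unadjusted p under 0.05 was reached by 2 of 9 members in K2A and 4 of 9 in ΔPod, beside 10.6% and 13.8% of all genes in these comparisons. Between the mutants it was reached by 0 of 9 members and by 364 of the 18067 genes. DESeq2 called 1 member in K2A, 2 in ΔPod and 0 between the mutants, beside 5.07%, 5.57% and 0.108% of all genes with an adjusted p. Limma-voom with sample weights called 7, 8 and 4 members, beside 78.9%, 78.9% and 28% of all genes, with weights of the libraries that ran from 0.0826 to 11.6. Groups did not overlap for 1 member that was higher in K2A (Gsdmd; 11% of all genes) and 1 that was lower (Nlrc4; 9.18%). They did not overlap for 2 members that were higher in ΔPod (Aim2 and Il1b; 8.73%) and 1 that was lower (Nlrc4; 9.47%). The median log2 fold change of the 9 members was 1.01 in K2A and 0.95 in ΔPod, where that of all tested genes was 0.09 and 0.08. With the transcript-length slope of each library as a covariate, the median of the members was 0.18 in K2A and 0.44 in ΔPod. Both comparisons share the WT libraries.

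Between K2A and ΔPod the levels of the members were compared directly. Il1b was the member whose groups did not overlap, with all 3 K2A libraries below all 3 ΔPod libraries, as for 5.11% of genes in either direction. Its log2 fold change of K2A over ΔPod was -1.02 (95% interval -2.40 to 0.35, unadjusted p = 0.126, adjusted p = 1.0). For the other 8 members the value lay between -1.21 (Casp4, interval -3.28 to 0.85) and 0.48 (Gsdmd, -0.50 to 1.46), with intervals that all include 0. These intervals leave room for differences of either sign. Between same-numbered libraries, Aim2, Casp4 and Il1b were lower in K2A in 3 of 3 pairs and Gsdmd was higher in 3 of 3. The share of all genes with 3 of 3 pairs in 1 direction was not counted, so these pairs only describe the libraries. With these pairs as a block, Casp4 was at -1.11 (unadjusted p = 0.00929, adjusted p = 0.615) and Il1b at -1.26 (unadjusted p = 0.0169, adjusted p = 0.687) by edgeR. Again 0 members passed, beside 9 of 17662 genes. The labels do not say what the numbers share, and in both groups number 3 is the long-transcript library.

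Most of the family followed the division of the libraries. In 7 of the 9 tested members, Aim2, Pycard, Casp1, Casp4, Gsdmd, Il1b and Il18, the short-transcript libraries lay above the long-transcript libraries within every group, as they did for 35.2% of all genes. The opposite arrangement was found in 0 of the 9 members and 34.4% of genes. Nlrp3 and Nlrc4 were the exceptions, with Nlrc4 higher in short-transcript libraries of ΔPod, lower in those of K2A, and overlapping in WT. The 7 members include genes with long annotated transcripts, Pycard with 3800 bases and Aim2 with 2839. The ratio of short-transcript to long-transcript libraries was large for Casp4 (4.80 in K2A, 6.03 in ΔPod, 4.27 in WT) and, among these 7 members, smallest in ΔPod for Il1b (4.62 in K2A, 1.16 in ΔPod, 2.39 in WT). K2A and ΔPod each held 2 short-transcript libraries, whereas WT held 1.

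**Figure D2:**
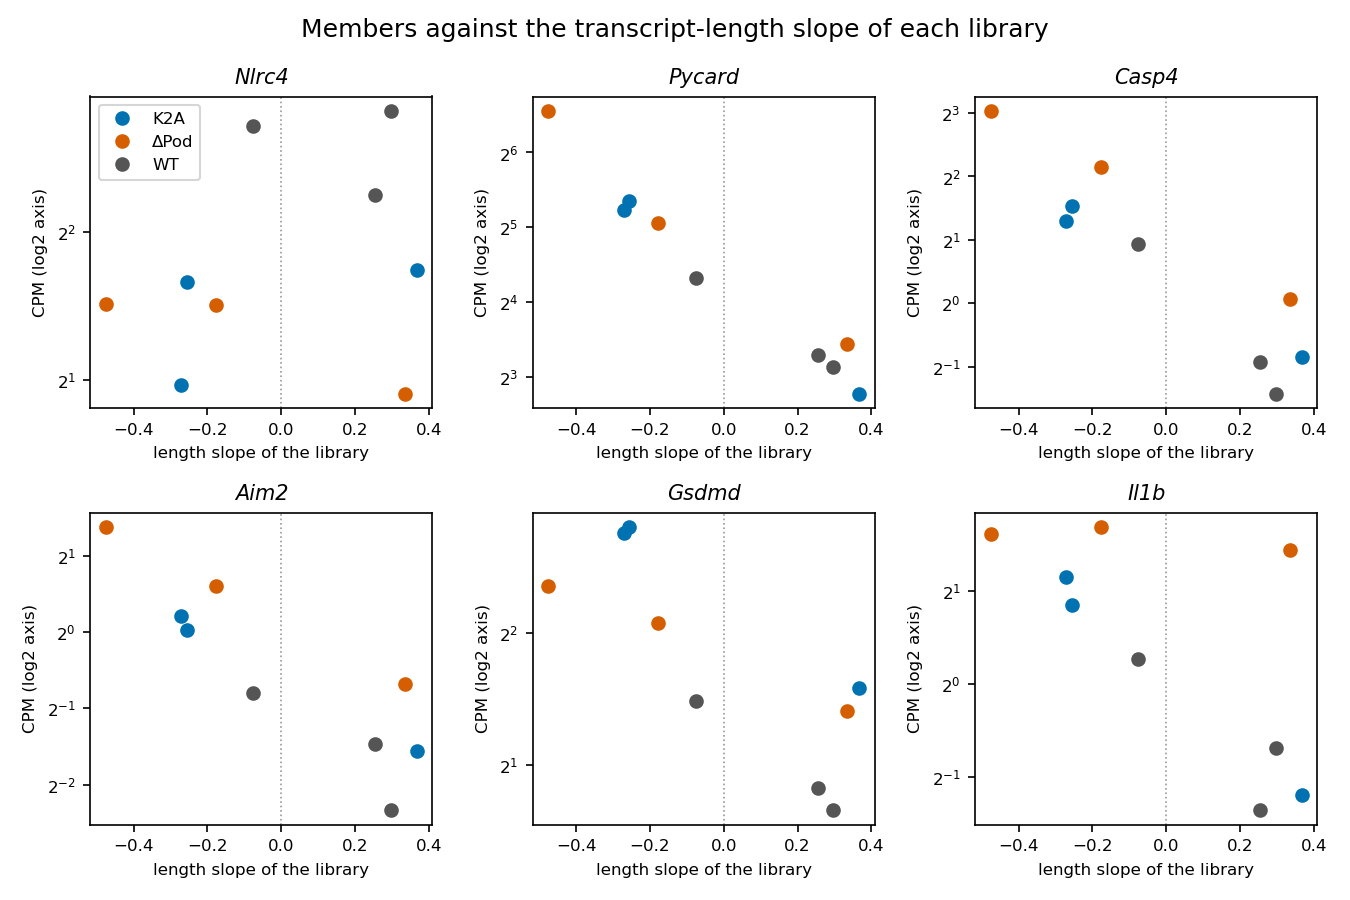
CPM of 6 members on a log2 axis plotted on the transcript-length slope of each library, with negative slopes for short-transcript libraries, for K2A, ΔPod and WT. Pycard, Casp4 and Aim2 decline along the slope in all groups, and the ΔPod points of Il1b stay at 2.72 CPM or above. Every mutant point of Nlrc4 lies below every WT point, though no WT library has a slope as low as the short-transcript mutant libraries.

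With the slope as a covariate, Nlrc4 differed from WT in both mutant groups, Gsdmd and Il18 in K2A, and Aim2, Casp4 and Il1b in ΔPod. That fit called 16% of all genes in K2A and 14.1% in ΔPod. Of the 9 members it called 3 in K2A and 4 in ΔPod, and 0 between the mutants, where it called 0.188% of genes. Nlrc4 fell in both, by 1.14 on the log2 scale in K2A (adjusted p = 0.0234) and by 1.33 in ΔPod (adjusted p = 0.0191). In K2A, Gsdmd rose by 1.05 (SE 0.18, adjusted p = 0.00553) and Il18 fell by 0.98 (SE 0.25, adjusted p = 0.0286). In ΔPod, Aim2 rose by 1.23 (adjusted p = 0.0209), Casp4 by 1.08 (adjusted p = 0.0307) and Il1b by 1.73 (adjusted p = 0.0299). The value for Pycard was 0.07 in K2A (adjusted p = 0.793) and 0.44 in ΔPod (adjusted p = 0.0837), in place of 1.14 and 1.84 in the fit without the slope. With the class of the library as a term instead, Gsdmd in K2A (adjusted p = 0.0373), Casp4 in ΔPod (0.0420) and Il1b in ΔPod (0.0456) passed, beside 4.09% of all genes in K2A and 3.96% in ΔPod. In that fit Nlrc4 was lost in K2A (adjusted p = 0.0800) and in ΔPod (0.0571), Il18 in K2A (0.183) and Aim2 in ΔPod (0.0782). Slope and class were estimated from the same counts, so neither fit is independent of them.

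Of the calls with the slope, Gsdmd in K2A held in each of the 9 fits that left out a library, at 0.97 to 1.17. Nlrc4 held in 7 of 9 in K2A, and was lost without WT 2 (adjusted p = 0.0942) or WT 3 (0.0753). In ΔPod it held in 6 of 9 and was lost without WT 2 (0.0944), WT 3 (0.0534) or ΔPod 3 (-0.95, adjusted p = 0.1001). Il18 in K2A held in 6 of 9 and was lost without WT 1 (0.0838), WT 2 (0.0976) or K2A 1 (0.0830). Aim2 in ΔPod held in 5 of 9 and was lost without WT 2 (0.0894), WT 3 (0.0655), ΔPod 2 (0.0508) or ΔPod 3 (0.0776). Il1b in ΔPod held in 4 of 9. It was lost without WT 1 (0.0985), WT 2 (0.0705), WT 3 (0.0826) or ΔPod 2 (0.0581), and without ΔPod 3 its value was 0.87 (adjusted p = 0.224). Casp4 in ΔPod held in 3 of 9 and was lost without WT 1, WT 3, ΔPod 2, ΔPod 3, K2A 1 or K2A 2, with adjusted p from 0.0520 to 0.0976.

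Within the long-transcript libraries alone, 1 K2A and 1 ΔPod library faced 2 of WT. Nlrc4 was at -0.81 in K2A and -1.64 in ΔPod, Gsdmd at 0.85 in K2A and Il1b at 2.43 in ΔPod. The spread in that fit came from WT 1 and WT 3 alone, and it called 31% of all genes in K2A and 22.8% in ΔPod, so the values are given without their p. Between the single K2A and ΔPod libraries it called 1 member, Il1b, and 9.2% of all genes. In K2A, Il1b had a value of -0.21 and Pycard of -0.43, both on the other side of 0 from the fit of all libraries. The lone mutant libraries were assumed to vary as the WT libraries did. Within the short-transcript libraries, with a single WT library, Nlrc4 was at -1.39 in K2A and -1.25 in ΔPod, Gsdmd at 1.25 in K2A and Il1b at 1.34 in ΔPod, and none passed (adjusted p = 0.286 to 0.313).

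**Figure D3:**
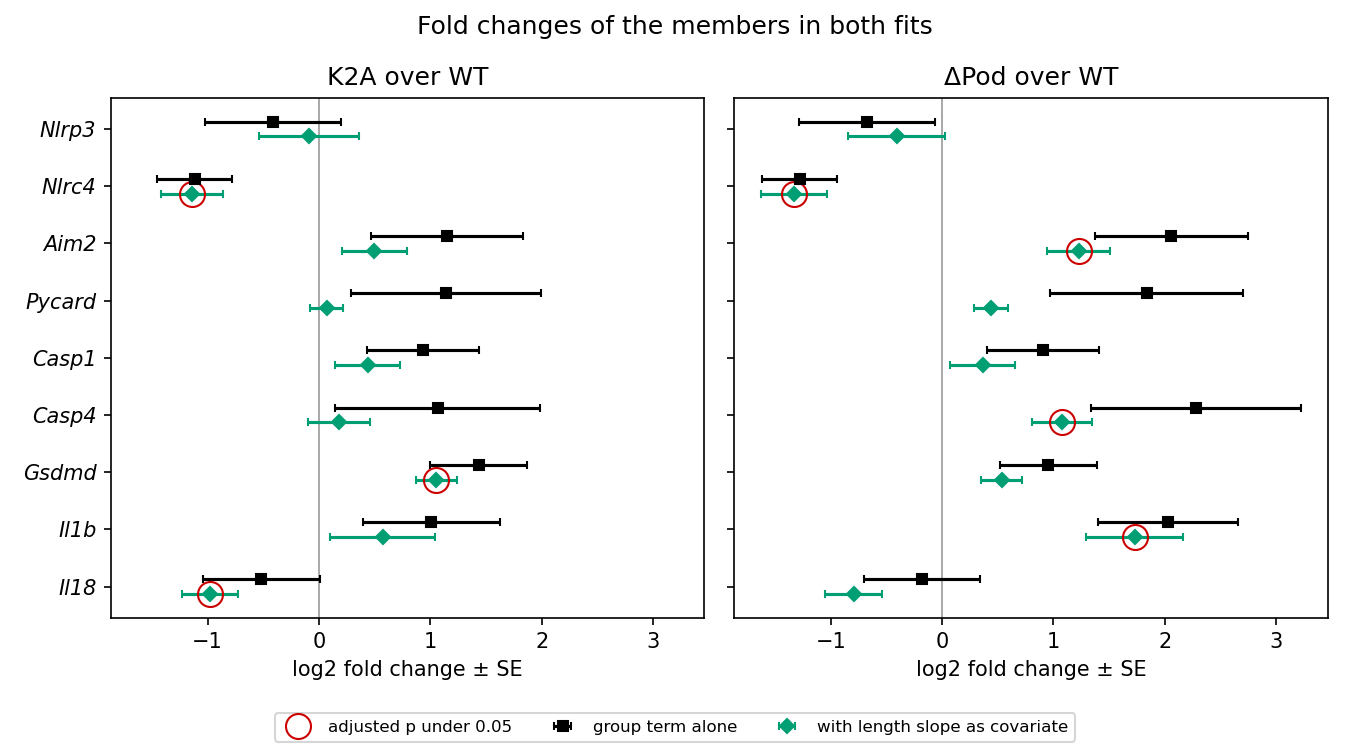
Log2 fold changes (± SE) of the 9 tested members in K2A and in ΔPod over WT, from the fit with the group alone (black squares) and with the length slope as covariate (green diamonds). Red circles mark an adjusted p under 0.05, which occurs with the covariate and not without it. Nlrc4 keeps nearly the same value in both fits, whereas Pycard moves from 1.14 to 0.07 in K2A between the fits.

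Set per kilobase of annotated transcript (RPKM, CPM divided by kilobases), the members had a different order of level in each group. In K2A the order was Pycard at 7.49 ± 4.94 RPKM, Gsdmd at 3.10 ± 1.24, Il18 at 1.54 ± 0.67, Casp4 at 1.37 ± 0.86, Il1b at 1.095 ± 0.69, Casp1 at 1.08 ± 0.53, Nlrc4 at 0.596 ± 0.159, Aim2 at 0.296 ± 0.154 and Nlrp3 at 0.0877 ± 0.0256 (mean ± SD, n = 3). In ΔPod the leading genes were Pycard at 12.1 ± 11.3 RPKM, Casp4 at 3.18 ± 2.50, Gsdmd at 2.22 ± 0.69 and Il1b at 2.22 ± 0.19, and Nlrp3 was again last at 0.0710 ± 0.0647. In WT they were Pycard at 3.40 ± 1.64 RPKM, Il18 at 2.21 ± 0.73, Nlrc4 at 1.29 ± 0.26 and Gsdmd at 1.15 ± 0.37, and Il1b stood seventh at 0.543 ± 0.310. Most neighbours in these orders overlapped in their libraries. The exceptions were Nlrc4 above Aim2 and Aim2 above Nlrp3 in K2A, Nlrc4 above Nlrp3 in ΔPod, and Il1b above Aim2 in WT. Per kilobase of coding sequence Pycard, at 49.1 ± 32.4 in K2A, 79.7 ± 74.5 in ΔPod and 22.3 ± 10.8 in WT, did not overlap the next member in any group.

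Markers of the cells that could carry these transcripts moved partly with them. The 10 macrophage markers summed to 261, 183 and 99.8 CPM in K2A, 293, 309 and 143 CPM in ΔPod and 151, 165 and 133 CPM in WT. None of these 10 passed in either comparison, with or without the slope, nor at an unadjusted p under 0.05. The 8 neutrophil markers summed to 0.961 to 1.33 CPM in K2A, 2.41 to 6.76 CPM in ΔPod and 0.865 to 2.98 CPM in WT, and Ly6g had no count in K2A, Ngp and Camp none in ΔPod and Ngp none in WT. The 8 lymphocyte markers summed to 2.86 to 10.3 CPM in K2A, 6.61 to 17.4 CPM in ΔPod and 4.69 to 7.01 CPM in WT. The 6 dendritic cell markers summed to 12.03 to 15.2, 11.8 to 15.1 and 9.87 to 11.7 CPM in the same groups. Of the 6, Zbtb46, a transcription factor of conventional dendritic cells, had 7.90, 6.05 and 9.002 CPM in K2A, 6.80, 7.62 and 8.44 CPM in ΔPod and 4.38, 4.90 and 4.47 CPM in WT. The dendritic sums of both mutant groups lay above WT, in ΔPod only just. That separation rests on Zbtb46, a large part of each sum, and not on the other 5 markers. With the slope Zbtb46 rose by 0.81 in K2A (adjusted p = 0.0118) and by 0.82 in ΔPod (adjusted p = 0.0137), and the other 5 passed in neither. In the fit with the group alone, 3 of the 6 dendritic fold changes were above 0 in K2A and 2 in ΔPod. The others were below 0, and the median log2 fold changes were 0.09 and -0.23. K2A 3 and ΔPod 3 had the lowest macrophage and lymphocyte sums of their groups, and also the lowest Casp1, Casp4, Pycard and Aim2. They are also the only long-transcript libraries of their groups. Such libraries lay below the short-transcript libraries within every group for 35.2% of all genes. The part of these cells in the values of the members was not tested.

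Of the 7 proximal tubule markers, the transporters Slc34a1 and Slc22a6 fell in both comparisons with the slope. The falls were 1.39 and 1.63 in K2A and 1.16 and 1.77 in ΔPod (adjusted p = 0.000392 to 0.0375). In ΔPod the same fit also called Slc5a12, which rose. Of all genes that fit called 16% in K2A and 14.1% in ΔPod. Markers of tissue outside the nephron also differed. The 7 fat cell markers summed to 201, 535 and 24.1 CPM in K2A, 116, 6.80 and 1.51 CPM in ΔPod and at most 0.914 CPM in WT. The 7 urothelium markers summed to 55.4, 67.6 and 8.23 CPM in K2A, 44.8, 11.6 and 0.725 CPM in ΔPod and 5.76 to 10.2 CPM in WT. By library, Il1b had 3.07, 3.24 and 2.72 CPM in ΔPod at fat sums of 116, 6.80 and 1.51 CPM. In K2A it had 1.80, 2.22 and 0.436 CPM at fat sums of 201, 535 and 24.1 CPM. The part of tubule, fat and urothelium in the values of the members was not tested. In the fit with the group alone, 8 of 9 male-biased kidney genes fell in K2A and 9 of 9 in ΔPod, and 2 of 3 female-biased genes rose in each.

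In the wider inflammasome list no gene passed without the slope, and with it the share that passed was close to that of all genes. Of 24 sensors, regulators and other gasdermins, 18 were tested and 0 passed edgeR in either comparison. The median log2 fold change was 0.23 in K2A and 0.09 in ΔPod. In each, 1 had an unadjusted p under 0.05, beside 10.6% and 13.8% of all genes. With the slope 3 of 18 were called in each comparison, which is 16.7% beside the 16% and 14.1% of all genes. Without overlap with WT were 4 of the 18 in K2A (Nlrp1b and Naip6 higher, Nlrp6 and Casp8 lower) and 2 in ΔPod (Casp12 higher, Gsdme lower). The shares of all genes, in either direction, were 20.1% and 18.2%. Naip2, a mouse receptor that feeds Nlrc4, had 2.67, 2.64 and 1.62 CPM in K2A, 2.50, 2.67 and 1.95 CPM in ΔPod and 3.58, 7.33 and 2.55 CPM in WT, with 3 of the 6 mutant libraries above WT 3. With the slope as covariate Naip2 fell by 1.17 in K2A (adjusted p = 0.0275) and by 1.15 in ΔPod (adjusted p = 0.0332). Naip6, a flagellin receptor of mice, was near the detection limit. It had 0.279, 0.267 and 0.315 CPM in K2A and 0.0573 to 0.111 CPM in WT. With the slope it rose by 2.09 in K2A (adjusted p = 0.0326). The Naip genes are near-identical copies, so their counts are uncertain. Casp12, a caspase of the endoplasmic reticulum, had 6.00, 3.77 and 1.71 CPM in ΔPod and 0.749, 1.66 and 1.06 CPM in WT, and rose by 0.91 in ΔPod in that fit (adjusted p = 0.0438). Ninj1, which ruptures the plasma membrane after gasdermin pores open, fell by 0.64 in K2A (adjusted p = 0.0335) and 0.68 in ΔPod (adjusted p = 0.0290) with the slope, though its CPM overlapped between groups. Txnip and Nek7, both linked to Nlrp3 activation, passed in neither fit, with means of 448 ± 111 CPM in K2A, 514 ± 117 CPM in ΔPod and 341 ± 91.5 CPM in WT for Txnip.

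In the interleukin-1 family beyond the members, Il33 and Il18bp lay above WT in all mutant libraries and Sigirr below it. Of 16 ligands, receptors and decoys, 11 were tested and 0 passed edgeR, with a median log2 fold change of 0.34 in both comparisons. At an unadjusted p under 0.05 there were 1 in K2A and 3 in ΔPod, beside 10.6% and 13.8% of all genes. Groups did not overlap for 4 of the 11 in K2A and 3 in ΔPod, beside 20.1% and 18.2% of all genes in either direction. With the slope 1 was called in K2A (9.09%) and 2 in ΔPod (18.2%), beside 16% and 14.1% of all genes. Il1rn, the receptor antagonist, did not pass the filter on low counts. Il33, an alarmin kept in the nucleus, had 12.2, 8.39 and 8.23 CPM in K2A, 16.3, 12.3 and 10.02 CPM in ΔPod and 5.6, 7.47 and 5.04 CPM in WT, so that all mutant libraries lay above WT. Its log2 fold change was 0.67 in K2A (adjusted p = 0.514) and 1.09 in ΔPod (unadjusted p = 0.00792, adjusted p = 0.216), and with the slope it rose by 0.87 in ΔPod (adjusted p = 0.0146). Il18bp, the secreted decoy of interleukin 18, had 9.11, 5.45 and 6.44 CPM in K2A, 5.14, 8.70 and 3.89 CPM in ΔPod and 2.74, 3.03 and 2.69 CPM in WT, again without overlap. Its log2 fold change was 1.31 in K2A (unadjusted p = 0.00664, adjusted p = 0.200) and 1.06 in ΔPod (adjusted p = 0.288). With the slope it rose by 1.20 in K2A (adjusted p = 0.0267). Sigirr, a receptor that damps interleukin-1 signalling, had 78.7, 81.8 and 72.8 CPM in K2A, 55.8, 75.8 and 85.8 CPM in ΔPod and 116, 113 and 110 CPM in WT, with all mutant libraries below WT. Its log2 fold change was -0.54 in K2A (adjusted p = 0.497) and -0.64 in ΔPod (adjusted p = 0.329), and with the slope it fell by 0.58 in ΔPod (adjusted p = 0.0332). Il1r1, the signalling receptor of interleukin 1, averaged 8.84 ± 1.87 CPM in K2A, 8.34 ± 1.62 CPM in ΔPod and 6.79 ± 0.74 CPM in WT and passed in neither fit.

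Among 19 genes of interleukin-1 receptor signalling, all tested, 0 passed edgeR, and the median log2 fold change was -0.09 in K2A and -0.34 in ΔPod. In each comparison 1 had an unadjusted p under 0.05, beside 10.6% and 13.8% of all genes. With the slope 1 of the 19 was called in K2A and 2 in ΔPod, a lower share than that of all genes. Groups did not overlap for 2 of the 19 in K2A and 5 in ΔPod, beside 20.1% and 18.2% of all genes in either direction. In K2A, Nfkbia and Ikbkg were higher. In ΔPod, Nfkbia was higher, and Myd88, Chuk, Ikbkg and Nfkbib were lower. The gene with the unadjusted p under 0.05 was Nfkbia, the NF-kB inhibitor that NF-kB itself induces. Nfkbia had 35.1, 48.1 and 44.7 CPM in K2A, 39.4, 49.9 and 57.4 CPM in ΔPod and 26.1, 25.2 and 21.5 CPM in WT. All 6 mutant libraries lay above WT, in both kinds of library. Its log2 fold change was 0.81 in K2A (SE 0.26, unadjusted p = 0.0136, adjusted p = 0.269) and 1.01 in ΔPod (SE 0.26, unadjusted p = 0.00442, adjusted p = 0.159), and with the slope it rose by 0.88 (adjusted p = 0.00788) and 1.09 (adjusted p = 0.00347). The receptor kinase Irak1 averaged 73.7 ± 21.1 CPM in K2A, 59.7 ± 31.4 CPM in ΔPod and 108 ± 13.1 CPM in WT, and with the slope it fell by 0.60 in ΔPod (adjusted p = 0.0229). Chuk, Tab2 and Nfkbib, a kinase, an adaptor and another inhibitor of the same route, passed in neither fit, with log2 fold changes of -0.54, -0.66 and -0.04 in K2A and -0.64, -0.69 and -0.44 in ΔPod.

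Of 17 genes that interleukin 1 and NF-kB induce, 8 were tested and 0 passed edgeR. At an unadjusted p under 0.05 there were 2 in K2A and 4 in ΔPod, beside 10.6% and 13.8% of all genes. The median log2 fold change was 0.98 in K2A and 1.25 in ΔPod, and 0.52 and 0.44 with the slope. The fit with the slope called 1 of the 8 in K2A (12.5%) and 3 in ΔPod (37.5%), beside 16% and 14.1% of all genes. Without overlap with WT were 2 of the 8 in K2A (Ptgs2 and Lcn2) and 4 in ΔPod (Cxcl1, Ccl2, Ptgs2 and Vcam1), all higher. The shares of all genes, in either direction, were 20.1% and 18.2%. Cxcl1, a neutrophil chemoattractant, had 0.496, 0.860 and 0.242 CPM in K2A, 1.09, 1.05 and 2.84 CPM in ΔPod and 0.111, 0.344 and 0.0494 CPM in WT. The ΔPod libraries did not overlap WT, and the log2 fold change was 1.66 in K2A (adjusted p = 0.525) and 3.30 in ΔPod (SE 0.80, unadjusted p = 0.00289, adjusted p = 0.124). Ptgs2, the inducible cyclooxygenase, had 0.961, 1.48 and 0.799 CPM in K2A, 0.398, 0.539 and 2.42 CPM in ΔPod and 0.194, 0.258 and 0.0741 CPM in WT. Both mutant groups lay above WT, with log2 fold changes of 2.61 in K2A (unadjusted p = 0.0101, adjusted p = 0.237) and 2.68 in ΔPod (unadjusted p = 0.00876, adjusted p = 0.226). Vcam1, a leukocyte adhesion molecule, had 10.2, 9.42 and 10.04 CPM in ΔPod and 6.99, 6.56 and 6.33 CPM in WT, a narrow spread with no overlap, and averaged 7.33 ± 0.79 CPM in K2A. With the slope, Ptgs2 rose by 2.96 in K2A (adjusted p = 0.0274), and in ΔPod Cxcl1 rose by 3.36 (adjusted p = 0.0156), Ptgs2 by 2.82 (adjusted p = 0.0302) and Vcam1 by 0.59 (adjusted p = 0.0299). Icam1, another adhesion molecule, averaged 17.0 ± 3.41 CPM in K2A, 19.1 ± 4.80 CPM in ΔPod and 17.5 ± 2.12 CPM in WT. Hp, the haemoglobin-binding plasma protein haptoglobin, which fat cells also make, had 7.16, 11.97 and 0.218 CPM in K2A, 5.57, 0.727 and 0.222 CPM in ΔPod and 0.247 to 0.749 CPM in WT, and it was high in the libraries with the most fat marker counts.

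**Figure D4:**
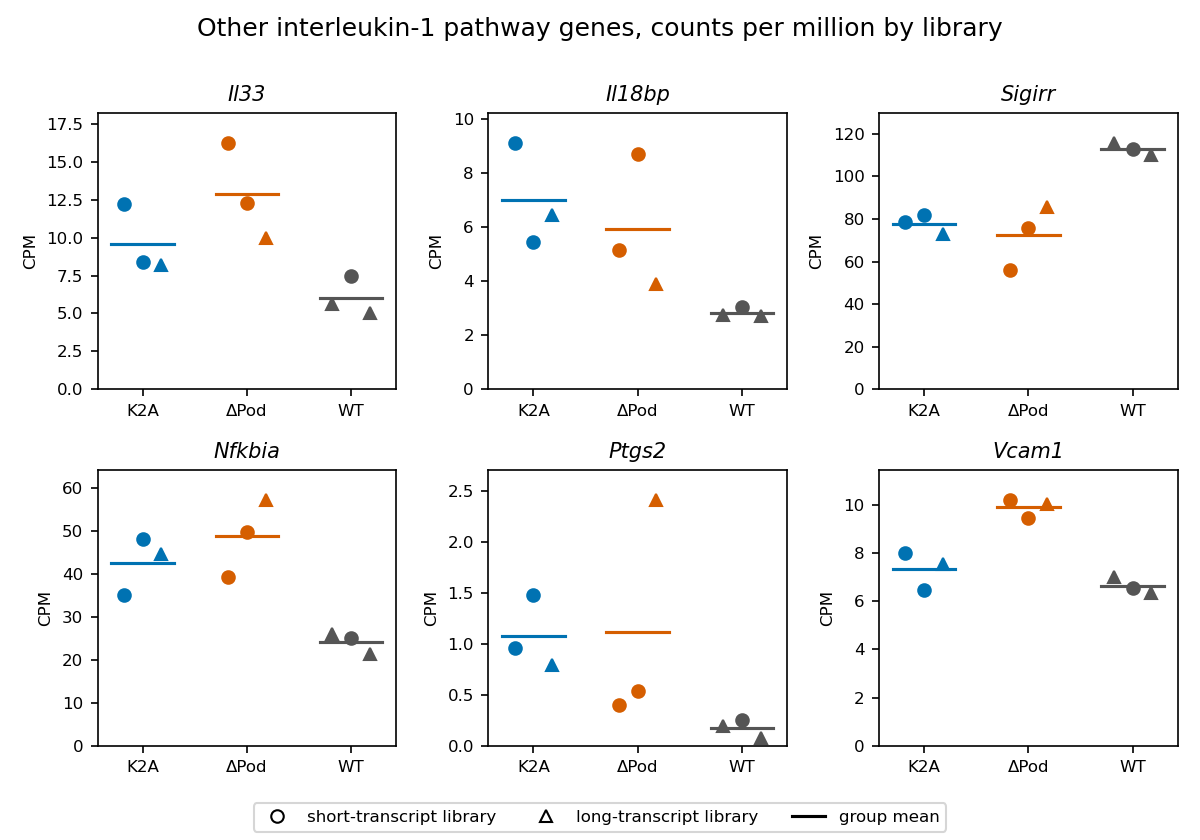
CPM of 6 interleukin-1 pathway genes outside the members in each library of K2A, ΔPod and WT, on linear axes that start at 0, with symbols and bars as in the plot of the members. For Il33, Il18bp, Nfkbia and Ptgs2 all mutant libraries lie above WT, for Sigirr all lie below it, and for Vcam1 only ΔPod, at 9.42 to 10.2 CPM, lies apart. Of all genes, 20.1% did not overlap WT in K2A and 18.2% in ΔPod, in either direction. The share that did so in both was not counted.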

How the data were processed

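The authors deposited raw gene counts as 2 tables of WT beside 1 mutant group each. Per the labels' protocols, libraries were made from 500 ng RNA with the ScriptSeq v2 kit after poly-A selection. The submitters' processing notes list STAR 2.7.3a, featureCounts 2.0.1 and DESeq2 1.30.0 among their tools and the build mm10. The strand setting of the counting is not given in the sources used here. The tables shared 52163 symbols, and 3 whose WT counts differed were left out. The members, gene lists and length terms were chosen with earlier results of these data known. Named beyond the members were the genes of each list called, the 3 with the smallest p and the 3 with the highest CPM.

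In R 4.3.3, all 9 libraries entered 1 edgeR 4.0.16 quasi-likelihood fit with group as the term, filterByExpr and TMM factors, with Benjamini-Hochberg adjustment over 18067 genes at 0.05. CPM uses the TMM-scaled library size. Alternatives were DESeq2 1.42.0, limma 3.58.1 with voom sample weights, other scalings and filters, a replicate block, each library left out, and terms for transcript length (GENCODE vM21, 17599 tested genes). The fits with the length slope and a library left out, and the paired fit of the mutants, were added after seeing the data. Same-numbered libraries deviated together from their group means in K2A and ΔPod (r of 0.403 to 0.85 in 3 pairs). Against WT they did so for numbers 2 and 3 (r of 0.441 to 0.755) but not for number 1 (r of -0.545 and -0.62). Differently numbered mutant libraries could correlate as much, such as ΔPod 1 with K2A 2 (r of 0.774, beside 0.76 with K2A 1). No pair of replicates agreed within sampling noise (chi-square per degree of freedom of 9.86 or more). On simulated counts with 200 genes changed the edgeR step was tested.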

Additional observations from a re-analysis of the deposited data

How the results depend on the processing

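Il1a, with 1 count in all, did not pass the filter and could not be tested. With 0 members called in any comparison by edgeR, the alternative counts below are given in the order K2A, ΔPod and K2A over ΔPod. Under RLE, upper quartile or library-size scaling and under other filters, 0 members were called in all comparisons. Upper quartile scaling shifted the all-gene median of the log2 fold change to 0.24 in K2A and 0.26 in ΔPod, and library size alone moved it to 0.17 and 0.11. The length slope called 3, 4 and 0 members, 2887, 2551 and 34 of all genes and 6, 10 and 0 pathway genes. The length class called 1, 2 and 0 members, 739, 715 and 0 genes, and 2 pathway genes in ΔPod. Long-transcript libraries alone, with 1 library in each mutant group and the spread of 2 WT libraries, called 2, 2 and 1 members, 5647, 4162 and 1677 genes and 17, 15 and 9 pathway genes. The last of each are calls between single libraries. By contrast, short-transcript libraries alone called 27 genes in K2A and 46 in ΔPod. DESeq2 called 1, 2 and 0 members, 909, 998 and 19 genes and 4, 6 and 0 pathway genes. Limma-voom called 7, 8 and 4 members, 14262, 14246 and 5060 genes and 39, 37 and 17 pathway genes. With only the 6 libraries compared, 54 genes were called in ΔPod. The causes of these differences were not tested.

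Leaving out each library, with or without the slope, gave 0 to 3 members in K2A, 0 to 5 in ΔPod and 0 to 2 between the mutants. The ranges were 3 to 4244, 23 to 3646 and 0 to 3004 of all genes, and 0 to 13, 0 to 16 and 0 to 5 pathway genes. Signs turned in K2A over WT for Nlrp3 (-0.59 to 0.61) and Pycard (-0.0439 to 1.59), and in ΔPod over WT for Il18 (-0.92 to 0.14). In K2A over ΔPod they turned for Nlrp3 (-0.0904 to 1.32), Nlrc4 (-0.13 to 0.46), Pycard (-1.17 to 0.36), Casp1 (-0.31 to 0.37) and Il18 (-0.69 to 0.0192).

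Signs also turned under other settings. In long-transcript libraries they did for Pycard (-0.43), Casp1 (-0.11) and Il1b (-0.21) in K2A, for Nlrp3 in ΔPod (0.21), and for Nlrp3 (-0.59) and Casp1 (-0.29) in K2A over ΔPod. Upper quartile scaling (0.0486) and voom (0.17) turned Il18 in ΔPod. In K2A over ΔPod, Nlrc4 turned in short-transcript libraries (-0.14) and under voom (-0.17), where Pycard also turned (0.20). Casp1, at 0.03 in K2A over ΔPod, turned under RLE (-0.0602), upper quartile (-0.0126), the stricter filter (-0.0055), the class term (-0.0097) and DESeq2 (-0.0583).

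Replicate numbers did not pair the mutants with WT throughout. Of 9 same-numbered pairs (r from -0.62 to 0.85), 7 correlated above 0.1. These were all 3 of K2A and ΔPod and those of numbers 2 and 3 with WT. Of the 9 libraries, 5 correlated best with their own number. With K2A and ΔPod alone and their numbers as a replicate block, 9 genes and 0 members were called, and Casp1 turned to -0.0358. Over all libraries a replicate block called 232 genes in K2A, 270 in ΔPod and 0 members, and turned Casp1 in K2A over ΔPod to -0.0122.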
